A study of Mus musculus with 13 samples.

Results

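The genes of major histocompatibility complex (MHC) class I and class II antigen presentation were followed in whole mouse brain with and without Pdcd10 in brain endothelial cells, in normoxia and in hypoxia. The rows of the gene count table with the symbols H2-K1, H2-D1, B2m, Tap1 and Nlrc5 (class I) and H2-Aa, H2-Ab1, H2-Eb1, Cd74 and Ciita (class II) were taken, which gave 10 of 55416 genes. All 10 passed the filter on low counts that left 22507 genes for testing.

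Pdcd10, also called Ccm3, is 1 of the genes whose loss causes cerebral cavernous malformations, which are clusters of enlarged and leaky brain capillaries. In the knockout (KO, Slco1c1-iCreERT2;Pdcd10fl/fl) a tamoxifen-inducible Cre recombinase under the promoter of Slco1c1, a gene of brain endothelial cells, was activated with 50 µg of 4-hydroxytamoxifen on postnatal day 1. The controls (flox, Pdcd10fl/fl) carried the floxed gene without Cre, and the design text also names Cre animals that were not injected as controls, so that the injection and the transgene cannot be told apart from loss of the gene. Normoxia was 21% oxygen and hypoxia 12% oxygen for 7 days, and the groups held 3 flox normoxia, 3 KO normoxia, 3 flox hypoxia and 4 KO hypoxia libraries. The labels call the animals male and give neither the strain nor the age at harvest.

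Class I molecules display peptides made inside the cell. Each is a heavy chain, such as the products of H2-K1 and H2-D1, held by beta-2 microglobulin (B2m), and the transporter of which Tap1 is a subunit brings peptides to it. Nlrc5 is the coactivator of class I transcription. Class II molecules display peptides taken up from outside the cell: H2-Aa and H2-Ab1 encode the alpha and beta chains of the I-A molecule and H2-Eb1 the beta chain of I-E, while Cd74 is the invariant chain that fills the groove until a peptide is loaded. Ciita is the coactivator of class II transcription. In resting brain, class I is low in most cells and class II is found mainly on macrophages and other immune cells at the borders of the brain, and microglia can raise both, for instance under interferon-gamma.

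Both coactivators bind no DNA themselves and are held at promoters by proteins on a conserved X box, with an X2 element, and Y box. The windows below, 180 bases up to the annotated start in RefSeq's GRCm38.p6 table, are shown because members of both classes that rose in KO carry the core letters of these elements. They are given for 6 of the 10 members, those of Cd74, Nlrc5, H2-Ab1 and Ciita not being used here. Capitals mark TGANG (the X2 core) and ATTGG (the Y core) where the 2 follow each other, GAANNGAAA, or GAAA and GAAA 2 bases apart (an interferon-stimulated element), and GGGA and CC 4 bases apart (a kappaB element), each on either strand.
H2-K1, chr17:34000348-34000527, minus strand: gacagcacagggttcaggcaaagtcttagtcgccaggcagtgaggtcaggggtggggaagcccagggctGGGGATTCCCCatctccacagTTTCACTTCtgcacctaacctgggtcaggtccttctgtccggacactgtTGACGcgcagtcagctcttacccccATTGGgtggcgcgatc
H2-D1, chr17:35262914-35263093, plus strand: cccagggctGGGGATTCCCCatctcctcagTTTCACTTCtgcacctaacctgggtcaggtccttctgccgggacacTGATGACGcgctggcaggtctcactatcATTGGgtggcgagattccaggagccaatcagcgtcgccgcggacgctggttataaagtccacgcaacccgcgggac
B2m, chr2:122147507-122147686, plus strand: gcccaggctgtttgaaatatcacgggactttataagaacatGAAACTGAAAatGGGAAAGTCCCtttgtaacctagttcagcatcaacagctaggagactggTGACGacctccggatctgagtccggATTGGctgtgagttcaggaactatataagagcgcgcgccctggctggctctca
Tap1, chr17:34187376-34187555, plus strand: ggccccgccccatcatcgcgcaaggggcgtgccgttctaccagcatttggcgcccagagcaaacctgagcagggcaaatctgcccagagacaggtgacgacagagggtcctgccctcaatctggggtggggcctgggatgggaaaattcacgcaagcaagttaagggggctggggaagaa
H2-Aa, chr17:34287824-34288003, minus strand: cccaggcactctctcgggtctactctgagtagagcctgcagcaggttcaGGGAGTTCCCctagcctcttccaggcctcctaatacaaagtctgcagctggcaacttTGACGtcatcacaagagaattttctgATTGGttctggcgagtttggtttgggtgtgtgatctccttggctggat
H2-Eb1, chr17:34305687-34305866, plus strand: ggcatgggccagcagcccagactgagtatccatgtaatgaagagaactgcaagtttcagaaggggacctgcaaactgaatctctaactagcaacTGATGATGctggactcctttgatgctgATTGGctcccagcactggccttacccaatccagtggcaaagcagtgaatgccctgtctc
In 5 of the 6, the exception being Tap1, TGANG was followed by ATTGG after 19 to 23 bases. The search allowed 10 to 25 bases between them on both strands, over 250 bases before the start, and 3.3% of 32851 such windows in the table held the pair. TGANG alone was in 84.8% of windows and ATTGG alone in 33.8%. The kappaB letters were found in 4 of the 6 (H2-K1, H2-D1, B2m and H2-Aa, against 17.6% of all windows). The interferon letters were found in 3 (H2-K1, H2-D1 and B2m, against 8.82% of windows for either form). The letters were chosen after the sequences had been seen, and a match is a description of the sequence only.

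Each library held between 42090437 and 71216636 counts, at which 3 counts, the limit that a count of 0 allows, came to 0.0428 to 0.0717 CPM (counts scaled to a common library total), counting error only. The members were well above this, from 20 counts of Nlrc5 in its lowest library to 5443 of B2m in its highest. The labels tie no library to a named animal, so a p-value is set by the spread among libraries, whatever their source. Pdcd10 was at 14.7 to 18.1 CPM in every library, which in whole tissue does not check a deletion in endothelial cells. In which cells the Cre recombinase acted was not tested. In KO normoxia replicate 2, transcripts of the choroid plexus were nearly missing (Ttr, its transthyretin, at 1.95 CPM against 274 to 462 elsewhere). KO hypoxia replicate 1 stood apart in red cell transcripts, with a summed level of 17400 CPM against 3410 to 4170 in the rest of its group. Its summed neutrophil and monocyte markers were at 9.82 and 16.5 CPM, against at most 1.77 and 8.59 in that rest. Xist, which is made from an inactive X chromosome, was above 1 CPM in 4 libraries (flox normoxia 3, KO normoxia 3, KO hypoxia 3 and 4), against the male label. In whole tissue, fewer cells of a type and less RNA per cell cannot be told apart, which holds for every level below.

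The first question was how the members differed between KO and flox in normoxia. Of the 10, 6 were higher in KO, H2-K1 and B2m of class I and H2-Aa, H2-Ab1, H2-Eb1 and Cd74 of class II, and none was lower, where 1.96% of all genes tested were called higher, 0.369% lower and 2.33% in either direction (edgeR's quasi-likelihood test, adjusted p under 0.05). The median log2 fold change was 0.76 for the class I members and 1.61 for the class II members, against 0.00 over all genes. In 8 members every KO library lay above every flox library (10.5% of all genes did) and in 1, Ciita, every KO library lay below (8.7%). The calls of B2m, H2-Ab1 and H2-Eb1 were each lost when 1 library or another was left out (B2m without flox replicate 1 or KO replicate 1, at 0.45 and 0.43), and those of H2-K1, H2-Aa and Cd74 were not. All 6 calls were lost without the 4 libraries with Xist (2 flox and 2 KO left), with log2 fold changes of 0.50 to 1.56 and adjusted p from 0.0625 to 0.291. Over all genes, that run called 239 higher and 72 lower of 22657 tested.

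In hypoxia the KO had 9 of 10 members higher, all except Ciita, where 6.78% of genes tested were called higher, 2.28% lower and 9.06% in either direction. The median log2 fold change was 1.23 for class I and 2.13 for class II, against -0.01 over all genes. Each of these 9 had every KO library above every flox library, as did 11.5% of all genes, and none lay below, as 9.37% did. All 9 stayed called in every alternative run, among them without each of the 13 libraries in turn and without the 4 Xist libraries.

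**Figure D1:**
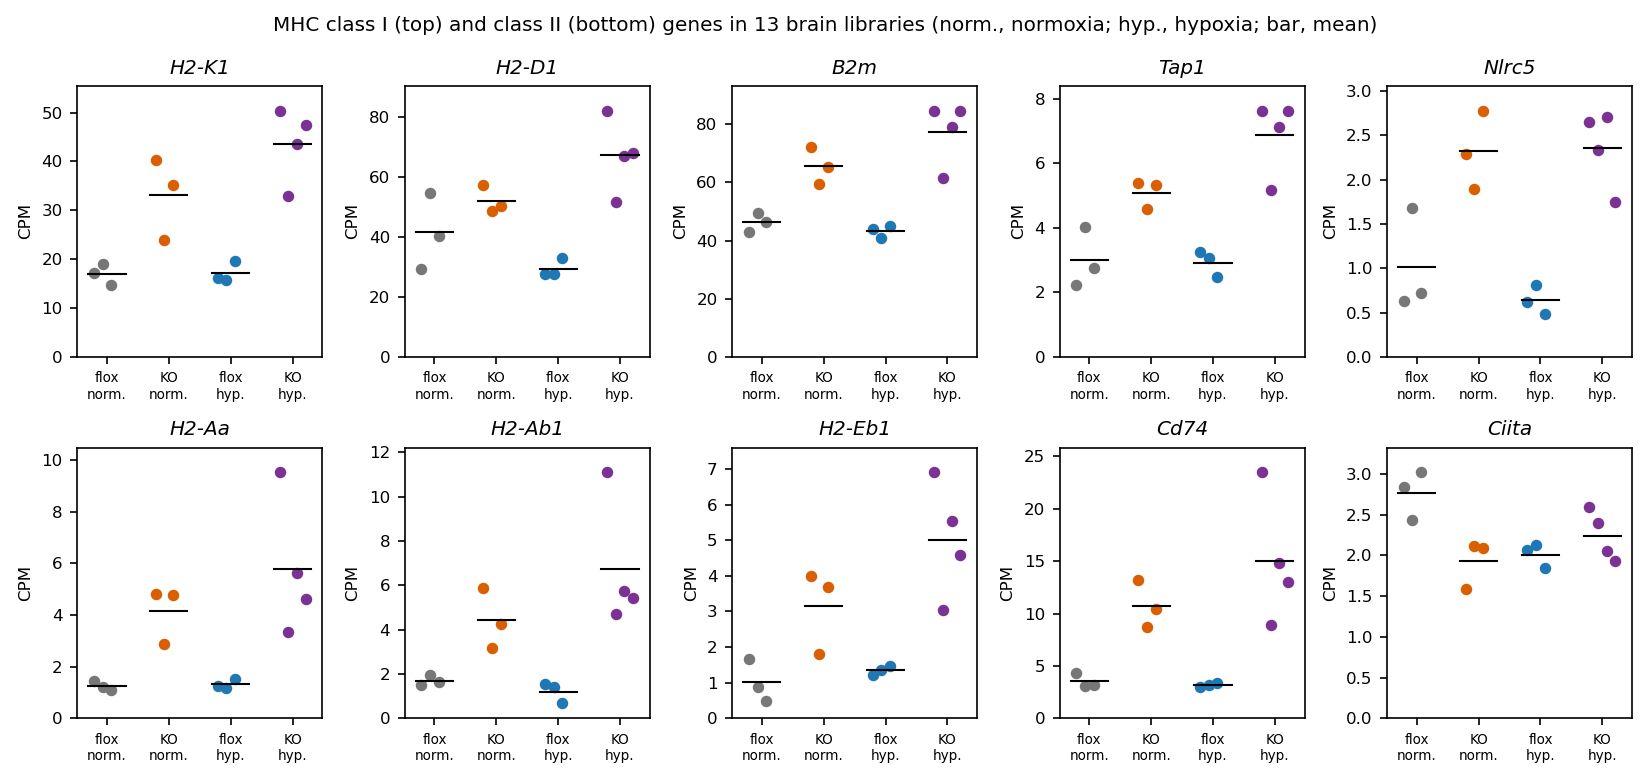
Level of each member in CPM (vertical axis, from 0, a separate scale for each gene) in each library (points, in the order of replicate number within a group); bars are group means. For 9 genes the KO hypoxia points lie above all flox hypoxia points, and Ciita overlaps.

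Of the heavy chains, H2-K1 (ENSMUSG00000061232) was at 17.2, 19.0 and 14.7 CPM in flox normoxia, 40.2, 24 and 35.1 in KO normoxia, 16.2, 15.7 and 19.7 in flox hypoxia and 50.4, 33, 43.6 and 47.4 in KO hypoxia. No KO library of H2-K1 overlapped a flox library, and replicate 2 was the lowest of both KO groups. The log2 fold change between genotypes was 0.96 ± 0.17 in normoxia (SE, edgeR adjusted p = 0.00681) and 1.34 ± 0.17 in hypoxia (0.000113).

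H2-D1 (ENSMUSG00000073411), the second classical heavy chain, was at 29.2, 54.7 and 40.4 CPM in flox normoxia, 57.3, 48.6 and 50.1 in KO normoxia, 27.6, 27.5 and 32.8 in flox hypoxia and 82.0, 51.6, 67.0 and 67.9 in KO hypoxia. The groups overlapped in normoxia through flox replicate 2, and did not in hypoxia. Its log2 fold change was 0.33 ± 0.18 in normoxia (edgeR adjusted p = 0.457, not called) and 1.20 ± 0.17 in hypoxia (0.000382). Heavy chain genes are similar in sequence, some more than others, so reads may have been split among them and the level of each alone is uncertain. How many reads were shared was not measured. Summed over 16 of them, of which H2-K1 and H2-D1 held 65.9% of the counts, the log2 fold change was 0.51 ± 0.13 in normoxia (edgeR adjusted p = 0.0631) and 1.07 ± 0.13 in hypoxia (8.35e-05).

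B2m (ENSMUSG00000060802), the light chain common to all class I molecules, was at 43.1, 49.5 and 46.5 CPM in flox normoxia, 72.3, 59.5 and 65.3 in KO normoxia, 44.0, 40.8 and 44.9 in flox hypoxia and 84.5, 61.5, 79.0 and 84.7 in KO hypoxia. Its genotypes did not overlap under either oxygen level. The rise in hypoxia was the smallest of the 9 called, and the error of B2m was the least of the 10, with a log2 fold change of 0.50 ± 0.10 in normoxia (edgeR adjusted p = 0.0142) and 0.84 ± 0.10 in hypoxia (6.07e-05). Per length, in RPKM (counts per length and library total), B2m was the most abundant member, at 53.6 ± 3.92 in flox normoxia (SD, n = 3) against 16.0 ± 5.02 for H2-D1 and 5.74 ± 0.766 for H2-K1.

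Tap1 (ENSMUSG00000037321), the peptide transporter subunit, was at 2.23, 4.04 and 2.77 CPM in flox normoxia, 5.38, 4.59 and 5.32 in KO normoxia, 3.24, 3.06 and 2.48 in flox hypoxia and 7.64, 5.19, 7.14 and 7.62 in KO hypoxia. All 7 KO libraries were above all 6 flox libraries. The log2 fold change was 0.76 ± 0.19 in normoxia, just past the threshold on the side not called (edgeR adjusted p = 0.0547), and 1.23 ± 0.19 in hypoxia (0.000527).

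Nlrc5 (ENSMUSG00000074151), the class I coactivator, was the least abundant of its class per length, at 0.118 ± 0.0693 RPKM in flox normoxia. Its levels were 0.628, 1.68 and 0.718 CPM in flox normoxia, 2.29, 1.90 and 2.78 in KO normoxia, 0.617, 0.814 and 0.478 in flox hypoxia and 2.65, 2.34, 2.71 and 1.75 in KO hypoxia. Flox normoxia replicate 2 came near the KO range, and no flox library reached it. The log2 fold change was 1.20 ± 0.31 in normoxia (edgeR adjusted p = 0.0555) and 1.89 ± 0.32 in hypoxia (0.0012). Without flox normoxia replicate 2, Tap1 and Nlrc5 were called in normoxia too, at 1.02 and 1.77 (edgeR adjusted p = 0.0103 and 0.00316). Without KO hypoxia replicate 1, which entered this contrast only through the spread, both were also called (0.0441 and 0.0467), so that 4 class I members passed in place of 2, and Tap1 was called without KO hypoxia replicate 2 (0.0288). DESeq2 called both (adjusted p = 0.00668 and 0.00894). Calls over all genes in normoxia rose as well, from 524 to 727 without KO hypoxia replicate 1, 581 without replicate 2 and 839 by DESeq2.

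Among the class II chains and Cd74, log2 fold changes in normoxia were 1.38 to 1.72, against 0.33 to 1.20 in class I. H2-Aa, the I-A alpha chain, was at 1.45, 1.22 and 1.08 CPM in flox normoxia, 4.81, 2.87 and 4.77 in KO normoxia, 1.27, 1.18 and 1.53 in flox hypoxia and 9.54, 3.33, 5.63 and 4.62 in KO hypoxia. The genotypes of H2-Aa were far apart in both conditions, and KO hypoxia replicate 1 was the highest library. Between genotypes it changed by 1.72 ± 0.32 in normoxia (edgeR adjusted p = 0.00857) and 2.13 ± 0.31 in hypoxia (0.000414).

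H2-Ab1, the I-A beta chain, was at 1.49, 1.97 and 1.63 CPM in flox normoxia, 5.89, 3.16 and 4.27 in KO normoxia, 1.54, 1.39 and 0.669 in flox hypoxia and 11.1, 4.70, 5.72 and 5.42 in KO hypoxia. KO hypoxia replicate 1 was well above the other 3 libraries of its group, and no KO library overlapped a flox library. Its log2 fold change was 1.38 ± 0.33 in normoxia (edgeR adjusted p = 0.0364) and 2.47 ± 0.33 in hypoxia (0.000201). In normoxia its call was lost without flox replicate 1, 2 or 3, or without KO replicate 1 or 3, with log2 fold changes of 1.12 to 1.50, and also without flox hypoxia replicate 2 (1.38, edgeR adjusted p = 0.0516), a library that enters the estimate of the spread only.

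H2-Eb1 (ENSMUSG00000060586), the I-E beta chain, was at 1.67, 0.886 and 0.479 CPM in flox normoxia, 4.00, 1.80 and 3.68 in KO normoxia, 1.22, 1.37 and 1.48 in flox hypoxia and 6.91, 3.05, 5.54 and 4.57 in KO hypoxia. In normoxia the lowest KO library was close to the highest flox library, and in hypoxia the gap was wide. Its log2 fold change was 1.65 ± 0.39 in normoxia (edgeR adjusted p = 0.0355) and 1.89 ± 0.36 in hypoxia (0.00326). The normoxia call was lost without flox replicate 2 or 3 or KO replicate 1 or 3 (1.29 to 1.57), and without flox hypoxia replicate 1 or 2 or KO hypoxia replicate 3 (edgeR adjusted p = 0.0509 to 0.0531). The alpha chain gene of I-E, listed as H2-Ea-ps, had 4 counts over all 13 libraries.

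Cd74 (ENSMUSG00000024610), the invariant chain, was the most abundant class II member per length, at 2.09 ± 0.417 RPKM in flox normoxia. It was at 4.34, 3.05 and 3.19 CPM in flox normoxia, 13.2, 8.68 and 10.4 in KO normoxia, 3.03, 3.22 and 3.37 in flox hypoxia and 23.5, 8.88, 14.8 and 13 in KO hypoxia. Every KO library of Cd74 was above every flox library. KO exceeded flox by a log2 fold change of 1.61 ± 0.27 in normoxia (edgeR adjusted p = 0.00414) and 2.23 ± 0.27 in hypoxia (8.26e-05).

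Ciita (ENSMUSG00000022504), the class II coactivator, did not go with the chains. It was at 2.84, 2.43 and 3.02 CPM in flox normoxia, 1.59, 2.11 and 2.09 in KO normoxia, 2.06, 2.12 and 1.84 in flox hypoxia and 2.59, 2.40, 2.05 and 1.93 in KO hypoxia. Flox normoxia had the highest mean, and the other 3 groups overlapped one another. The log2 fold change was -0.51 ± 0.16 in normoxia (edgeR adjusted p = 0.133) and 0.16 ± 0.15 in hypoxia (0.61), neither called. Nlrc5 and Ciita, the coactivators of the 2 classes, thus had log2 fold changes of 1.89 and 0.16 in hypoxia, and the difference between the genes was not tested.

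**Figure D2:**
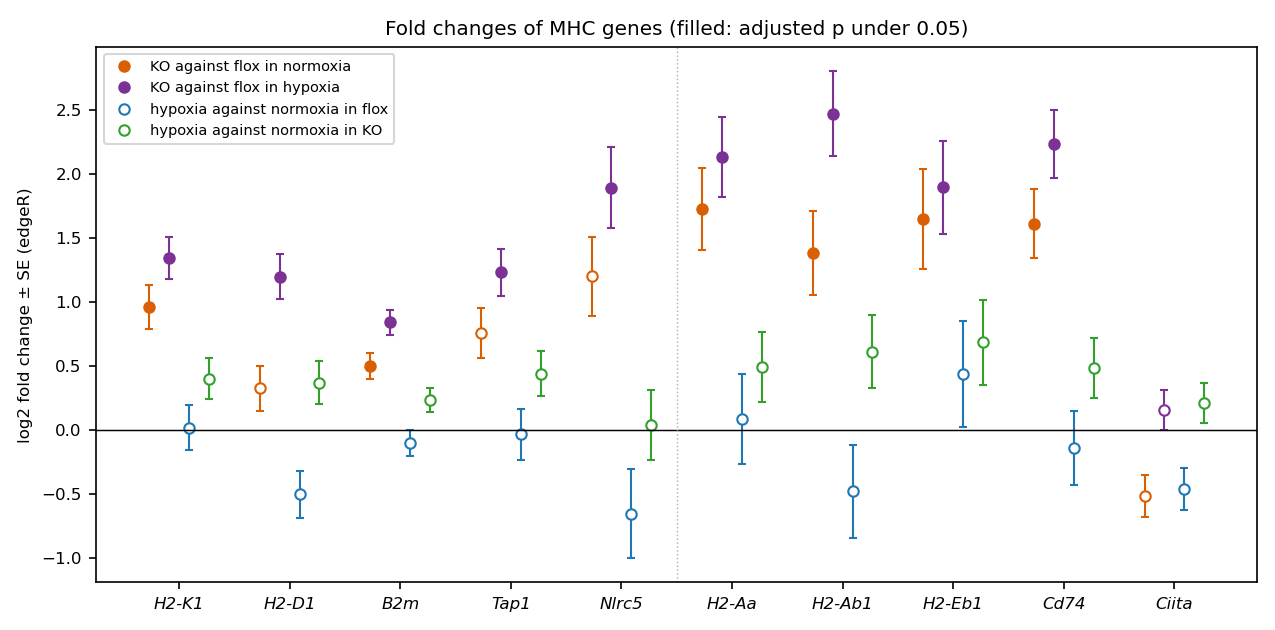
Log2 fold change with SE from edgeR (vertical axis) for the 10 members (horizontal axis) in 4 contrasts; filled points passed an adjusted p of 0.05. The KO against flox values in hypoxia are filled for all but Ciita, and no value of hypoxia against normoxia is filled.

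The second question was whether hypoxia moved the members within a genotype. In flox none of the 10 was called (edgeR), as were 0.0222% of genes tested, and 2 had an unadjusted p under 0.05: H2-D1 at -0.50 ± 0.18 (unadjusted p = 0.0142, adjusted 0.59) and Ciita at -0.46 ± 0.16 (0.0125, adjusted 0.579). Ciita was the 1 member whose hypoxia libraries lay all below its normoxia libraries, as 5.98% of genes did, and none had them all above (6.56%). In KO none was called either, where 0.897% of genes were (0.622% higher and 0.275% lower), and 5 had an unadjusted p under 0.05 (H2-K1, H2-D1, B2m, Tap1 and H2-Ab1). All 10 log2 fold changes in KO were above 0, from 0.04 ± 0.27 for Nlrc5 to 0.69 ± 0.33 for H2-Eb1, with edgeR adjusted p of at least 0.256, and in each member the KO libraries of the 2 oxygen levels overlapped (6.59% of genes were all above and 6.04% all below). DESeq2 called none of the members in either genotype. Without the filter on low counts, edgeR called H2-D1 in flox and H2-K1, H2-D1 and B2m in KO, and B2m was also called in KO without KO hypoxia replicate 2 (0.34, adjusted p = 0.0229). Calls over all genes rose as well: without the filter from 5 to 158 in flox and from 202 to 833 in KO. Without KO hypoxia replicate 2 they rose to 463 in KO. For all genes, the count called in KO fell from 202 to 2 without KO normoxia replicate 2. It also fell to 25 without KO normoxia replicate 1 and to 8 without replicate 3, so the fall was not particular to replicate 2.

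In the order of levels, KO hypoxia had the highest mean and KO normoxia the second highest for the 9 members other than Ciita, and these neighbours did not differ by the test. The flox groups were below them, and did not differ from each other by the test.

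The third question was whether the KO effect differed between oxygen levels. The difference of the log2 fold changes (interaction) was above 0 in all 10 members, from 0.25 ± 0.53 for H2-Eb1 to 1.09 ± 0.46 for H2-Ab1. None was called by edgeR (smallest adjusted p = 0.566), as was no gene of all tested (0% called, with 1635 genes at an unadjusted p under 0.05). By DESeq2 there were 8 calls and by limma 2, no member among them. H2-D1 (0.87 ± 0.25, unadjusted p = 0.00284), Ciita (0.67 ± 0.22, 0.00872), B2m (0.34 ± 0.14, 0.0267) and H2-Ab1 (1.09 ± 0.46, 0.032) had an unadjusted p under 0.05. H2-D1 was called without the filter on low counts (0.88, edgeR adjusted p = 0.000823), a run that called 55 genes of all.

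Summed by class, the 5 class I genes came to 109 ± 18.5 CPM in flox normoxia, 158 ± 19.5 in KO normoxia, 93.3 ± 6.41 in flox hypoxia and 197 ± 31.3 in KO hypoxia (SD, n = 3, 3, 3 and 4). The 5 class II genes came to 10.2 ± 1.34, 24.5 ± 5.48, 9.10 ± 0.198 and 34.8 ± 13.4 CPM in the same order. The class I sum was thus 1.45-fold higher in KO in normoxia and 2.12-fold in hypoxia, and the class II sum 2.39-fold and 3.82-fold. Class II as a share of class I was 9.70 ± 2.76% in flox normoxia, 15.3 ± 1.67% in KO normoxia, 9.79 ± 0.865% in flox hypoxia and 17.3 ± 4.38% in KO hypoxia. Since CPM does not correct for gene length, the share per length is the one to read across classes: by RPKM it was 5.205%, 10.06%, 5.35% and 11.78%. In each library of KO the share was above that in each flox library on both scales. Within groups, KO hypoxia replicate 1 was highest for 8 of 10 members and replicate 2 lowest for 8, and KO normoxia replicate 2 was lowest for 9.

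**Figure D3:**
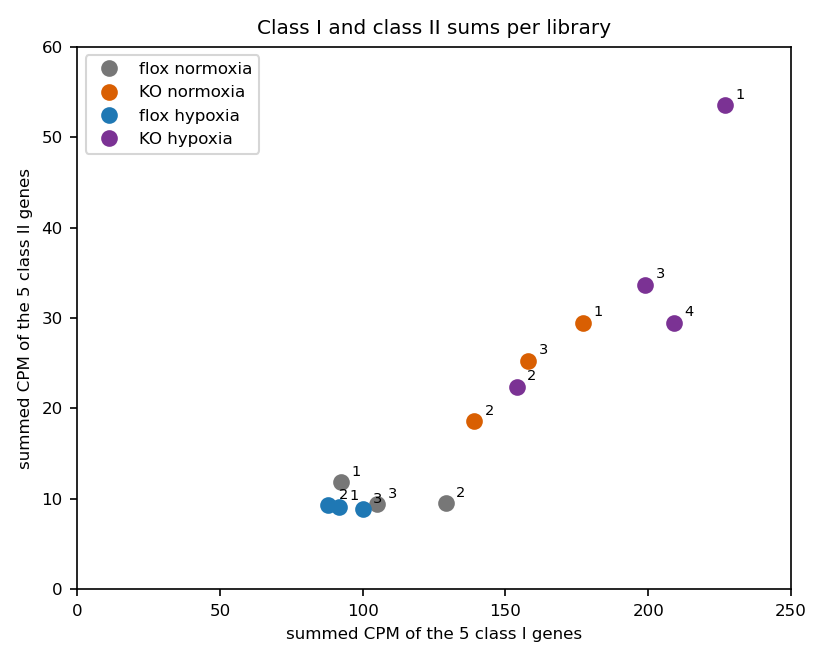
Summed CPM of the 5 class I genes (horizontal axis) against the 5 class II genes (vertical axis), 1 point per library, numbered by replicate. The 7 KO points are at 18.6 CPM of class II or more, and the 6 flox points at 11.8 or less; KO hypoxia replicate 1 is the highest on both axes.

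Other genes of antigen presentation were then counted. Of 15 further heavy chain genes tested, 8 were higher in KO in hypoxia (median log2 fold change 0.58), beside 6.78% of all genes. In normoxia 1 was higher, Fcgrt (median 0.53), beside 1.96% of all genes. None was lower in hypoxia (2.28% of all genes were) or in normoxia (0.369%). H2-Q6 (2.55 ± 0.47), H2-Q7 (1.62 ± 0.36), H2-Q4 (1.35 ± 0.25) and H2-T24 (0.86 ± 0.25) rose most in hypoxia, and Fcgrt, the neonatal Fc receptor, rose in both conditions (0.56 ± 0.09 and 0.72 ± 0.08) and was named after its values had been seen. Mr1 and H2-M5 were the most abundant that did not pass (0.37 ± 0.15 and -0.25 ± 0.19). Without KO hypoxia replicate 1, 5 heavy chains were called in hypoxia in place of 8, and 5 without the Xist libraries. Calls over all genes fell too, from 1526 higher of 22507 to 1170 of 22278 and 1164 of 22657 in these runs.

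Of 12 genes of peptide supply and loading, 3 were higher in KO in hypoxia, beside 6.78% of all genes (median 0.22). In normoxia none was, beside 1.96% of all genes (median 0.14). Psmb8, an immunoproteasome subunit, rose by a log2 fold change of 0.94 ± 0.25, Tap2, the partner of Tap1, by 0.67 ± 0.16 and Tapbp, the tapasin that bridges transporter and heavy chain, by 0.43 ± 0.07. Calnexin (Canx, 0.06 ± 0.04) and calreticulin (Calr, 0.02 ± 0.06), general chaperones, did not pass. Without KO hypoxia replicate 1, 2 genes of this list were called in hypoxia, and 1 without the Xist libraries. Over all genes, 1170 of 22278 and 1164 of 22657 were called higher in these runs. Without KO normoxia replicate 2, 1 was called in normoxia, beside 269 higher of 22967 genes.

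Of 10 genes of class II loading tested, none was higher in KO in normoxia, beside 1.96% of all genes (median 0.13). In hypoxia 4 were higher, beside 6.78% of all genes (median 0.54). These were Ifi30, a thiol reductase of lysosomes (1.24 ± 0.28), H2-DMb1, a chain of the peptide exchanger (0.94 ± 0.27), Ctss, the protease that trims the invariant chain (0.84 ± 0.15), and Lgmn, another lysosomal protease (0.33 ± 0.08). Ctsl (0.16 ± 0.05) and Marchf1 (-0.02 ± 0.07) were the most abundant that did not pass. Without KO hypoxia replicate 1, 3 genes of this list were called in hypoxia and 1 in normoxia, beside 1170 and 610 higher of 22278 genes. Without the Xist libraries, 2 were called in hypoxia, beside 1164 higher of 22657 genes.

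Of 17 genes of the X-box and Y-box proteins and the interferon-gamma axis, none rose in KO in normoxia, beside 1.96% of all genes. In hypoxia 4 rose, beside 6.78% of all genes. Among them were the interferon-induced factor Irf1 (0.83 ± 0.14), the receptor chain Ifngr1 (0.55 ± 0.09) and the myeloid factor Irf8 (0.53 ± 0.16). The median of that list was -0.03, and Jak1 (-0.03 ± 0.04) and Creb1 (-0.04 ± 0.05) were the most abundant that did not pass. The X-box factors Rfx5 (-0.08 ± 0.07), Rfxap (-0.04 ± 0.07) and Rfxank (-0.07 ± 0.10), singled out after their values had been seen, did not pass either. Ifng itself had 4 counts in all 13 libraries. Without KO hypoxia replicate 1, 3 genes of this list were called in hypoxia, and 2 without the Xist libraries. The genes called higher of all in these runs were 1170 of 22278 and 1164 of 22657. Of 8 T cell co-receptors and costimulators 1 was called higher, where 6.78% of all genes were: Icosl (0.60 ± 0.12), while Cd4 (-0.83 ± 0.40) and Cd86 (0.58 ± 0.25) did not pass.

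**Figure D4:**
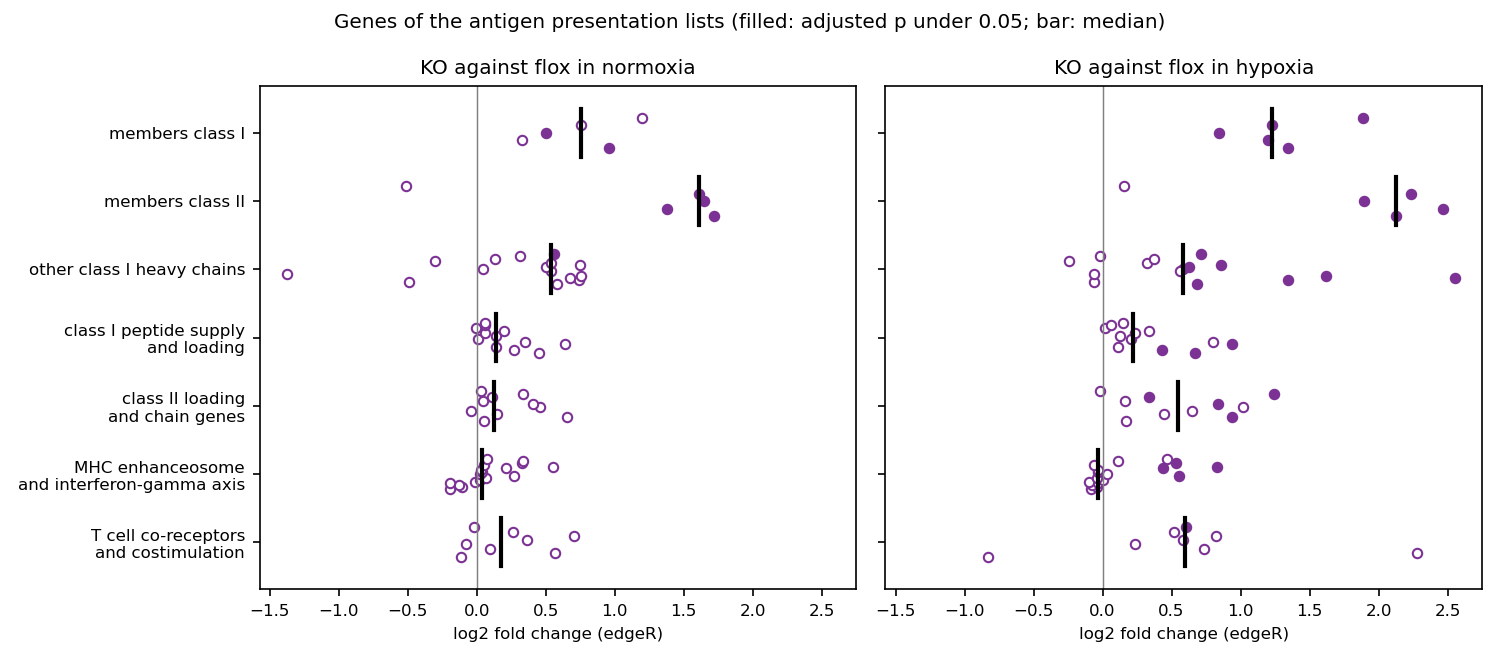
Log2 fold change from edgeR (horizontal axis) of each gene in the lists named at the left, KO against flox in normoxia (left) and hypoxia (right); filled points passed an adjusted p of 0.05 and bars are medians. In hypoxia 8 of 15 other heavy chains and 3 of 12 peptide supply genes are filled, where 9.06% of all genes tested passed.

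Which cells the MHC transcripts came from was not tested; the markers that moved with them are given here. In KO in hypoxia, 10 of 12 microglial markers were higher (median 0.43), 8 of 9 of border macrophages (1.22), 3 of 5 of monocytes (2.28), 2 of 8 of dendritic cells (0.55), 2 of 8 of B cells (1.24), none of 4 of T cells (0.79), 12 of 12 pan-endothelial (1.03), 4 of 8 of astrocytes, 7 of 7 of red cells and 1 of 2 of neutrophils, beside 6.78% of all genes. In normoxia, beside 1.96% of all genes, 11 of 12 pan-endothelial markers were higher (median 1.00), 2 of 9 of border macrophages (0.37), 2 of 8 of B cells (1.11), 5 of 7 of red cells (2.40) and 2 of 8 of astrocytes (0.15, with 1 lower). None of 12 microglial markers (0.21), 5 monocyte markers (1.81), 8 dendritic cell markers (0.07), 4 T cell markers (0.17) and 2 neutrophil markers (-0.29) was called in normoxia, though 8 of the microglial and 3 of the monocyte markers had every KO library above every flox library, as 10.5% of all genes did. The summed level of the border macrophage markers was 27.4 to 31.7 CPM in flox normoxia, 37.4 to 43.7 in KO normoxia, 26.1 to 28.9 in flox hypoxia and 42.3 to 69.3 in KO hypoxia. The class II sum was 9.40 to 11.8, 18.6 to 29.5, 8.89 to 9.28 and 22.4 to 53.6 CPM. The monocyte sum was 1.49 to 2.93, 3.12 to 6.67, 2.37 to 3.79 and 5.57 to 16.5 CPM in the same order. The endothelial, microglial, dendritic cell, astrocyte and red cell sums were also higher in KO at both oxygen levels, without overlap. Zbtb46 and Flt3 made most of the dendritic cell sum, at 13.1 and 8.87 of 24 CPM in flox normoxia replicate 1. In normoxia the genotypes overlapped in the sums of B cell, T cell, neutrophil, choroid plexus and neuron markers. Cd3e, Cd3d and Cd3g, which define T cells, had 64, 36 and 57 counts over the 13 libraries, too few to be tested.

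Abundant markers of each type were, with KO against flox in hypoxia, Csf1r (0.48 ± 0.07) of microglia, Stab1 (0.66 ± 0.11) and Mrc1 (1.20 ± 0.18) of border macrophages, Zbtb46 (0.38 ± 0.09) and Flt3 (-0.04 ± 0.10) of dendritic cells, Ly6c2 (1.20 ± 0.42) and Ccr2 (1.61 ± 0.46) of monocytes and Lck (0.03 ± 0.17) and Il7r (0.48 ± 0.34) of T cells. Of B cells, Igkc (2.79 ± 0.41) was called and Ighm (0.14 ± 0.23) was not, and of endothelium both Flt1 (0.51 ± 0.11) and Cldn5 (1.33 ± 0.13) were. Gfap (1.67 ± 0.15) of astrocytes was called and Aldoc (0.05 ± 0.05) was not. Of red cells, Hba-a1 (3.87 ± 0.51) and Hbb-bs (3.68 ± 0.56) were called, and of neutrophils S100a9 (3.0 ± 0.79) but not S100a8 (2.46 ± 0.78). KO hypoxia replicate 1 had S100a9 at 5.19 CPM and Igkc at 6.21. Replicates 2, 3 and 4 had S100a9 at 0.775, 0.581 and 0.919 CPM and Igkc at 1.80, 2.22 and 3.52. Ttr (-0.11 ± 0.74) and Kl (-0.29 ± 0.30) of the choroid plexus and Snap25 (-0.11 ± 0.05) and Slc17a7 (-0.08 ± 0.04) of neurons were not called, in lists with 0 of 6 and 0 of 8 higher and, in neurons, 1 lower.

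**Figure D5:**
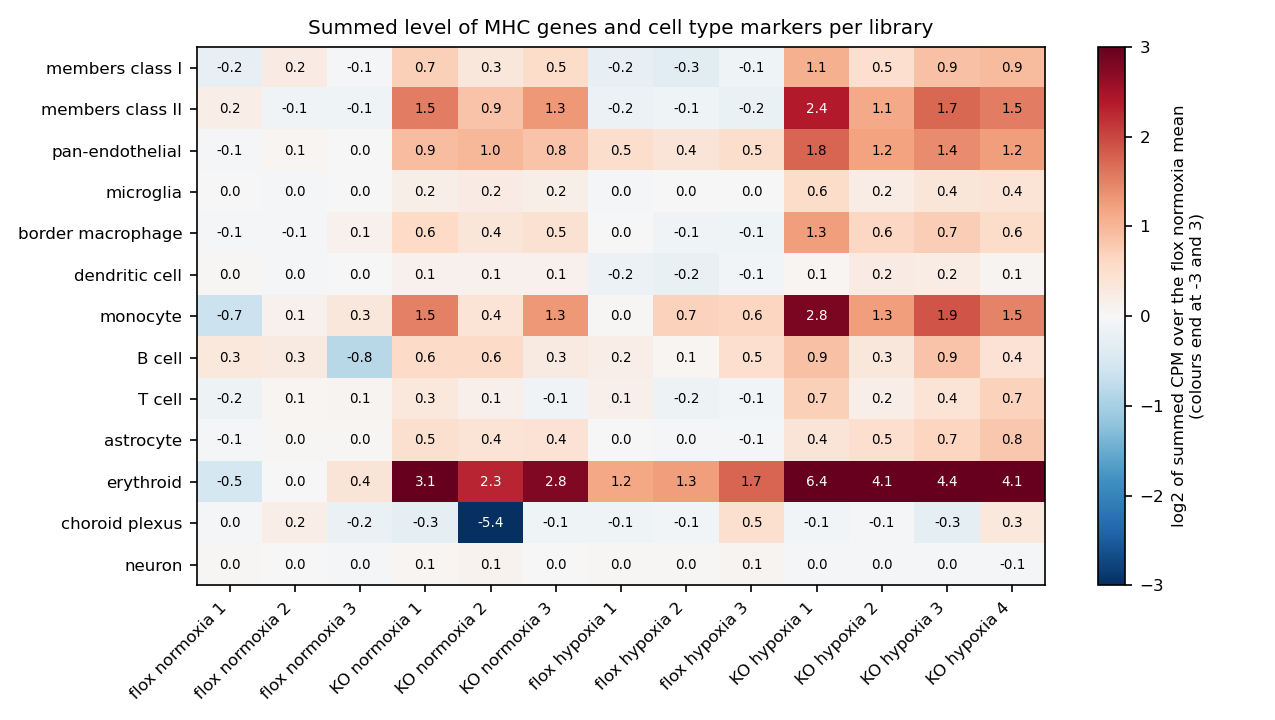
Log2 of the summed CPM of each gene list over the mean of flox normoxia (colour and number), for the 13 libraries (columns). In every KO library the class I and class II members and the endothelial, microglial, border macrophage, dendritic cell, monocyte, B cell, astrocyte and red cell lists are above 0. The endothelial, monocyte, B cell and red cell lists are above 0 in every flox hypoxia library too. The B cell list is at 0.31, 0.26 and -0.83 in flox normoxia itself, so its reference is lowered by replicate 3. In flox normoxia replicate 1, Ighm made 20.6 of its 22.2 CPM, and Zbtb46 and Flt3 were at 13.1 and 8.87 CPM in a dendritic cell sum of 24. The choroid plexus list is at -5.4 in KO normoxia replicate 2.

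The genes whose pattern over the 13 libraries was most like that of H2-K1, H2-D1, B2m and Tap1 together, by root mean square difference of centred log2 CPM over 13506 genes, were Tnfrsf1a (0.13), Ephx1 (0.13), Lgals1 (0.14), Glipr2 (0.15) and Cd109 (0.15). The 4 genes themselves differed from their mean by 0.14 to 0.19. Those most like H2-Aa, H2-Ab1, H2-Eb1 and Cd74 were Anxa1 (0.23), Cybb (0.26), Srgn (0.26), Mustn1 (0.28) and Vim (0.28), with 0.13 to 0.35 for the 4 genes themselves. Anxa1 went from 1.41 CPM in flox normoxia to 5.36 in KO hypoxia, and Vim from 29.0 to 146 CPM.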

How the data were processed

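The data are 13 RNA-seq libraries of whole mouse brain. The authors deposited raw counts per gene and RPKM values for 55416 genes, from HISAT2 and edgeR on GRCm39 per the submitters' processing notes. The strand setting of the counting is not given in the sources used here. Deposited RPKM equals deposited counts per column total and per 1 length a gene. Groups came from the sample titles. The 10 members and all gene lists were chosen with earlier results of these data known.

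The test was edgeR's (version 4.0.16, R 4.3.3; filterByExpr, TMM, quasi-likelihood, 1 mean per group, all libraries, 5 contrasts). Adjusted p-values are Benjamini and Hochberg's over 22507 genes of 1 contrast, threshold 0.05. CPM were scaled by TMM, and the SE was taken from the F statistic. The tests were tested on simulated data. Alternatives were RLE and no composition factor, no filter, DESeq2 1.42.0, limma 3.58.1 on log2(RPKM + 1) or log2(RPKM + 0.1), the replicate number as a block, only the libraries compared, each library of the groups compared left out, the Xist libraries left out, and heavy chains summed. Leaving out KO normoxia 2 and KO hypoxia 1 together, and leaving out each library of the groups not compared, were added after the data were seen. Named genes were all members, the up to 4 largest called and 2 most abundant not called of each list, the 2 most abundant markers of each cell type and the 5 most alike in pattern. Values of some single genes that meet this rule are not reported here, although counts include them. Promoter windows came from RefSeq's GRCm38.p6 table, another build than the authors', so their coordinates are in that build and none is given on the authors' build.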

Additional observations from a re-analysis of the deposited data

Results flagged for a closer look

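H2-Ab1 in KO hypoxia replicate 1 was at 11.1 CPM, against 4.70 to 5.72 CPM in the other 3 libraries of its group. It lay farther from them than the group's range allows by Dixon's test at the 95% level (gap ratio 0.841, critical value 0.829). Chance flags about 1 group in 20, and 12 sets of values of this group were tested, the 10 members and the 2 class sums. The same library was highest for 8 of the 10 members. H2-Ab1 stayed called in KO against flox in hypoxia without it.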

How the results depend on the processing

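Of 1150 alternative values for the members, 1087 kept direction and side of the threshold, 29 lost a call, 15 gained one and 19 changed sign, none of the latter in KO against flox. No batch was given. Nlrc5 had the fewest counts of the members, and an effect of depth on it was not tested. The members called in normoxia (6) were 3 (without KO normoxia 1) to 8 (without KO hypoxia 1) leaving out 1 of the 13 libraries, 0 without the Xist libraries (2 against 2) and 2 by limma on log2(RPKM + 1); in hypoxia they were 9 throughout. Without the filter, 1 member was called in flox, 3 in KO and 1 in the interaction, and leaving out 1 library gave 0 to 1 in KO. Over all genes, leaving out 1 of the 13 gave 250 to 727 genes in normoxia (524), 1151 to 2490 in hypoxia (2039), 0 to 45 in flox (5), 2 to 463 in KO (202) and 0 to 1 in the interaction (0). The lowest were without flox normoxia 1 in normoxia, without flox hypoxia 2 in hypoxia, without flox normoxia 1 or 2 or flox hypoxia 1 in flox and without KO normoxia 2 in KO. For normoxia, flox, KO and the interaction, the counts were 995, 158, 833 and 55 with no filter, 839, 67, 749 and 8 by DESeq2, 249, 2, 46 and 2 by limma on log2(RPKM + 1), 333, 2, 42 and 2 by log2(RPKM + 0.1) and 311, 66, 94 and 10 without the Xist libraries. They were 19 in flox and 30 in KO with only the libraries compared, and 21 and 35 without both KO normoxia 2 and KO hypoxia 1. The class II share by RPKM was 5.205%, 10.06%, 5.35% and 11.78%.

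Correlations of deviations were -0.018 to 0.137 in 18 pairs of same-numbered libraries (1 over 0.1), against -0.131 to 0.093 in 45 other pairs. The highest was between flox normoxia 3 and KO hypoxia 3, both with Xist. Whether the numbers pair animals is not known. The replicate block gave 1 gene in the interaction and changed no member's call.

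Leaving out 1 library, log2 fold changes crossed 0 for hypoxia against normoxia in flox in Cd74 (-0.23 to 0.03), Tap1 (-0.21 to 0.23), H2-K1 (-0.09 to 0.11) and H2-Aa (-0.02 to 0.20), in KO in Nlrc5 (-0.09 to 0.19) and in the interaction in H2-Eb1 (-0.32 to 0.60). Without the Xist libraries, H2-K1 was -0.08 and H2-Aa -0.02 in flox. Without KO normoxia 2 and KO hypoxia 1, Nlrc5 was -0.15 and H2-Aa -0.08 in KO, and in the interaction H2-Aa was -0.16 and H2-Eb1 -0.25. The heavy chain sum was -0.22 in flox, where H2-K1 was 0.02. The cause was not tested.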
